A study of Schizosaccharomyces pombe with 4 samples.

Results

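The nuclear genes for the proteins of the mitochondrial ribosome were examined in a chromatin immunoprecipitation on tiling arrays (ChIP-chip) of the kinase Cdk11 in fission yeast (Schizosaccharomyces pombe). They were chosen from the annotation of the ASM294v3 assembly, as nuclear coding genes whose product contains both "mitochondrial" and "ribosomal protein". The annotation holds 76 such genes among 5113 nuclear coding genes. The array files name no genome build. On chromosome I from 3.7 Mb onward their coordinates did not match ASM294v3 unshifted, with a best shift of 6000 to 6250 bp in all but the first window of 100000 bp. No coordinates were converted, so 5 of the 76 were not analysed here. The other 71, of 4347 coding genes within reach, are the genes described. The rule itself uses no measured value, but it was chosen with earlier results of these data known. By their product names, 43 encode large (54S) subunit proteins, 27 encode small (37S) subunit proteins, and for 1, kgd4, no subunit is stated. There were 20 on chromosome I, 37 on chromosome II and 14 on chromosome III.

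All arrays come from 1 group, cells labelled as wild-type carrying Cdk11-HA, grown at 32 °C in rich medium and fixed with 3% formaldehyde for 10 min. Chromatin was sheared to about 500 bp, precipitated with an antibody to the HA tag, amplified by ligation-mediated PCR and hybridised against input DNA on 4 arrays. Per the labels, replicates 1 and 3 belong to the first immunoprecipitation and replicates 2 and 4 to the second, so n = 2 and each pair of arrays is a technical duplicate. An untagged strain and a mock precipitation were not analysed here, no dye was swapped, and the tagged strain is the only one, so binding of the antibody to untagged chromatin cannot be told apart from binding to Cdk11.

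Mitochondrial ribosomes translate the few messages of the mitochondrial genome, which mostly encode subunits of the respiratory chain and the ATP synthase. Nearly all of their proteins are made from nuclear genes, translated by cytosolic ribosomes and imported. In fission yeast the genes for cytosolic ribosomal proteins are among the most transcribed by RNA polymerase II, and many carry a HomolD box in place of a TATA box, often with a HomolE box beside it. Cdk11 acts together with cyclin L, and the study's title ties it to the assembly of Mediator, the large complex through which transcription factors reach RNA polymerase II.

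The value of a gene is the log2 of Cy3 over Cy5 foreground signal, centred on the median probe of each array and averaged over the probes of its window, the coding span plus 500 bp on both sides. A value of 0 is the median probe, not an absence of Cdk11. By the labels the immunoprecipitated DNA carries Cy3 and the input Cy5. The ratios in the authors' deposited table have Cy5 on top, so which sign means enrichment is not settled, and each gene is described as higher in Cy3 (positive) or in Cy5 (negative). The arrays held 42707 genomic probes of median length 60 nt at a median spacing of 265 bp. Over these probes the 4 arrays correlated with each other at r = 0.17 to 0.28. Replicates 1 and 3 of the first immunoprecipitation stood at r = 0.21 and replicates 2 and 4 of the second at r = 0.27, within the range of the pairs across immunoprecipitations, 0.17 to 0.28. Replicate 1 lost the most spots to the quality filter, 16.3%, against 1.00 to 8.05% on the others.

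Every one of the 71 genes had probes in its window, from 2 to 10 with a median of 6, and 395 probes in all. Their coding spans were short, with a median of 549 bp, against 1234 bp over all coding genes, so most of a window was flank. Of the 396 pairs of a probe and a window, 45 (11.4%) lay inside another coding span, in the windows of 35 of the genes.

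As a group the mitochondrial ribosomal protein genes sat at the level of the median probe. Their median window value was -0.09 in immunoprecipitation 1 and 0.11 in immunoprecipitation 2, against -0.04 and 0.01 over the 4299 coding genes tested. Over both immunoprecipitations the medians were -0.02 for the 71 genes and -0.01 for all coding genes. By array the median of the 71 genes was -0.07 and 0.05 on replicates 1 and 3, and 0.07 and 0.15 on replicates 2 and 4. On the same arrays all coding genes had -0.08 and -0.01, and -0.03 and 0.02. The genes thus lay a little above the others on 4 of 4 arrays by these medians, while the median of their means lay a little below, and neither gap exceeded the difference between the immunoprecipitations. Of the 71 genes, 35 had a value above 0 and 36 below. Under other scalings, filters and arrays over the same window the median of the 71 genes ran from -0.17 to 0.05. Its lowest value came with centring on the mode of each array, which put the median of all coding genes at -0.15.

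The 71 genes lacked the far Cy5 end of the range but were not closer together in its middle. Their values ran from -0.49 to 0.55, and 66 lay within 0.4 of the median probe. All 4299 coding genes ran from -2.13 to 1.00, but a range also widens with the number of genes compared. Ranked from the Cy5 end of the 4299, the lowest of the 71 genes, mrx14, stood at 301. The highest, mrpl39, mrpl10 and mrpl32, stood at 4256, 4258 and 4259, near the Cy3 end. The SD over the 71 genes was 0.24, against 0.31 over all coding genes. Quartiles of the 71 genes were -0.14 and 0.19, against -0.18 and 0.13 over all coding genes. The sign was the same in both immunoprecipitations for 42 of them (59.2%), against 60.8% of all coding genes, and on all 4 arrays for 15. The values in the 2 immunoprecipitations correlated at r = 0.15 across the 71 genes, against 0.56 across all coding genes, a description over genes that share arrays and are not replicates. The order of most of these genes is therefore not separated from the spread between immunoprecipitations.

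**Figure D1:**
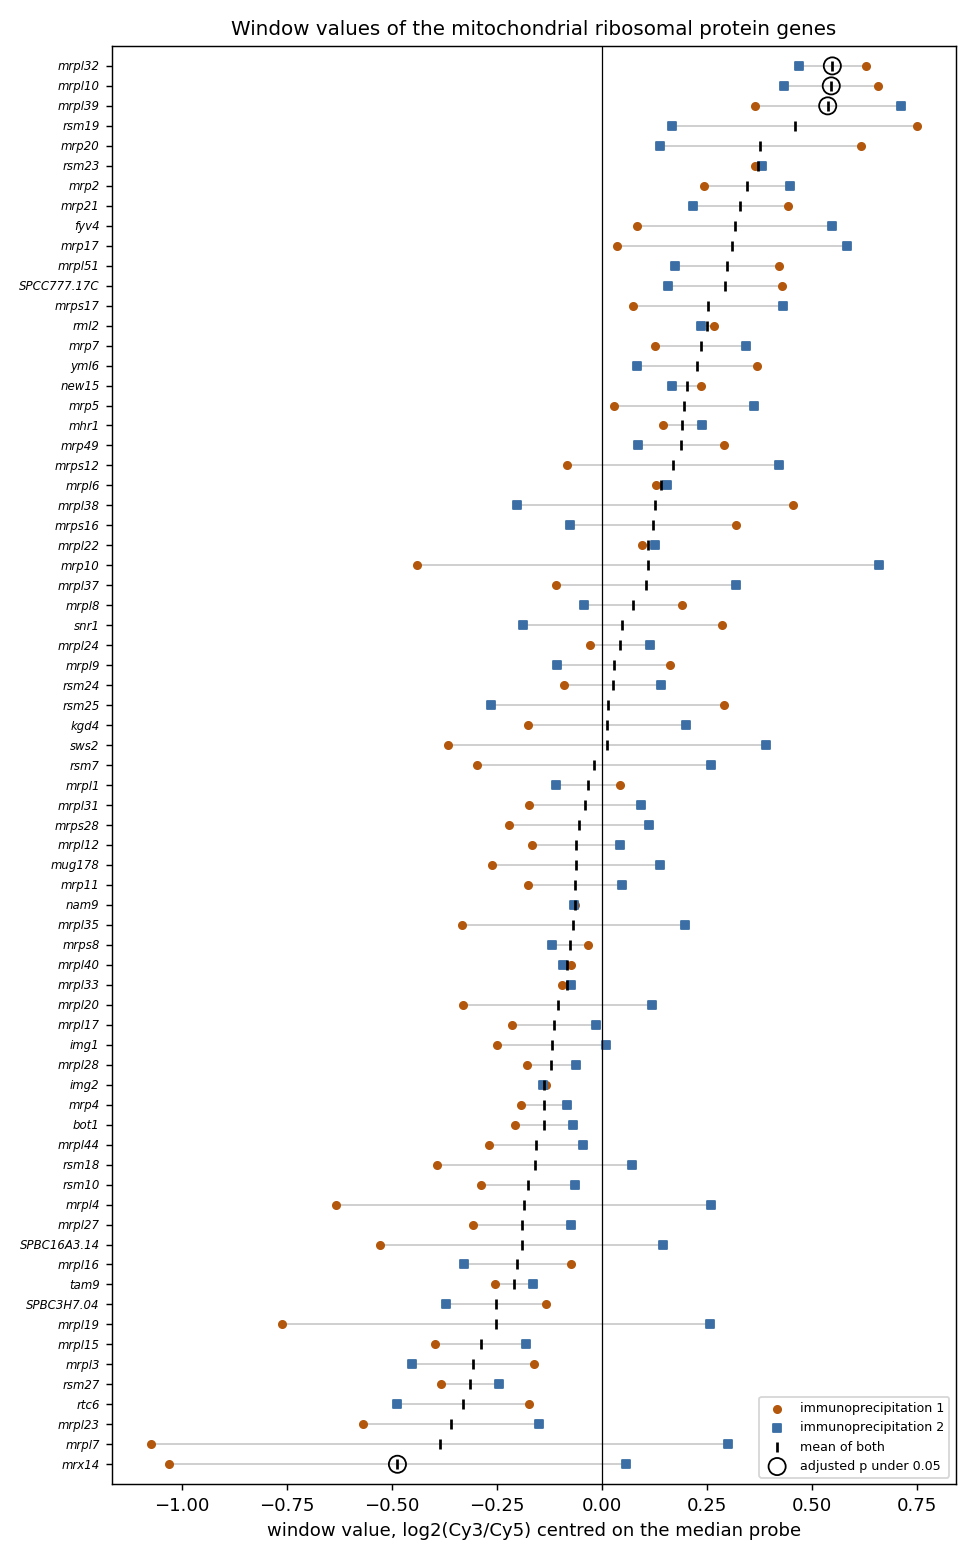
Window values (log2(Cy3/Cy5), x axis) of the 71 mitochondrial ribosomal protein genes (y axis), with immunoprecipitation 1 as circles, immunoprecipitation 2 as squares, their mean as a tick, and rings round the 4 genes with an adjusted p under 0.05. The means run from -0.49 to 0.55, and for many genes the grey line that joins the immunoprecipitations crosses 0.

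Each window value was tested against 0 with limma over the 2 immunoprecipitations, with p-values adjusted by Benjamini-Hochberg over all 4299 genes and a threshold of 0.05. Of all coding genes 1.84% were called higher in Cy3 and 7.33% higher in Cy5, 9.16% in either direction. Centred on the mode the counts were 1 and 184 genes, against 79 and 315. Of the 315 genes called in Cy5, 85 encode cytosolic ribosomal proteins. Of the 71 genes 3 were called higher in Cy3 and 1 higher in Cy5, together 5.63%. These counts are small, and their difference from the shares of all genes was not tested. At an unadjusted p under 0.05 there were 8 and 4 of the 71. None of the 71 reached 1.5-fold from the median probe in both immunoprecipitations in either direction, against 0.14% of all genes in Cy3 and 3.44% in Cy5. The fit gave nearly every gene the same standard error, 0.17, whatever its number of probes. The measured SD between immunoprecipitations was 0.52 (root mean square over genes) for windows of 1 to 2 probes and 0.20 for windows of 8 or more, and 37.8% of the first and 5.39% of the second were called. Of the 71 genes 2 had windows of 1 to 2 probes and 15 of 3 to 4, so calls on few probes carry more error than their p-values show.

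All 4 called genes encode large subunit proteins. The 3 higher in Cy3 were mrpl32, mrpl39 and mrpl10, and mrx14 was the 1 higher in Cy5. The 250 bases before the annotated transcript start of 3 of them are shown with that of rps2, a cytosolic small subunit protein gene, because the promoter elements of the cytosolic genes are absent from them. Capitals mark the HomolD box, CAGTCACA, the HomolE box (the longest run of capitals in rps2), the TATA box, TATAAA, and an A/T-rich element, AATTTTT. All were searched as letters on both strands. The regions were read from ASM294v3, at chrII:3907602-3907851 (plus strand) for mrpl32, chrII:2701752-2702001 (minus strand) for mrpl39, chrII:3805029-3805278 (minus strand) for mrx14 and chrIII:2096037-2096286 (minus strand) for rps2.
mrpl32: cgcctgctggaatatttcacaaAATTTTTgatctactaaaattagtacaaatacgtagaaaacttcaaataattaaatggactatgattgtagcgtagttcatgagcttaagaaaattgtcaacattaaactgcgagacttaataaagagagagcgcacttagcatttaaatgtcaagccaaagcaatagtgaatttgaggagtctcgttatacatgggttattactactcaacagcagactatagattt
mrpl39: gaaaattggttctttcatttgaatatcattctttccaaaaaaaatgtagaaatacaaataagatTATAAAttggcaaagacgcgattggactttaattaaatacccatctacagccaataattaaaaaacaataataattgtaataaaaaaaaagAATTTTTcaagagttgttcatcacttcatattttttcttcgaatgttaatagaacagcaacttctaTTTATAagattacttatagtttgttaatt
mrx14: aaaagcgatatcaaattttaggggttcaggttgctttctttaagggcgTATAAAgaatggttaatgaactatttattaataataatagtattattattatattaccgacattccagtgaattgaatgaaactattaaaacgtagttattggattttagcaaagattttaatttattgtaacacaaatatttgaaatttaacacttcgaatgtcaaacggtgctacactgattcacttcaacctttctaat
rps2: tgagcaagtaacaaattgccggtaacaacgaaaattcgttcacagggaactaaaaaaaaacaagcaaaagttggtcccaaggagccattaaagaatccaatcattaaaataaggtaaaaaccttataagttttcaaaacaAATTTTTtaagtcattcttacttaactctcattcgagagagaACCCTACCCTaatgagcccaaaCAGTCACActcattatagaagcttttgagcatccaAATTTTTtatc

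The gene mrpl32 (SPBC1604.13C, chromosome II, coding span of 312 bp) encodes bL32m, a large subunit protein of the bacterial type. Its window value was 0.55 and 0.76 on replicates 1 and 3 and 0.21 and 0.48 on replicates 2 and 4, above 0 on every array. Averaged by immunoprecipitation it was 0.63 and 0.47, a mean of 0.55 ± 0.11 (SD, n = 2), 1.46-fold, with an adjusted p from limma of 0.0159. The 5 probes lie between positions 3907803 and 3908933 in the array's coordinates. The probes before the start codon had means of 1.03 and 0.83, those in and just after the coding span 0.62 and 0.46, and the last one, inside the neighbouring gene SPBC1604.12, had -0.20. Without that probe the value of mrpl32 was 0.73, with an adjusted p of 0.00124. Of its 5 probes 3 were not well above background on all 4 arrays, and after a loess correction for brightness its value was 0.07, with an adjusted p of 0.733.

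The gene mrpl10 (SPBC9B6.06, chromosome II, coding span of 765 bp) encodes uL15m, a large subunit protein found in all ribosomes. It was above 0 on every array, at 0.71 and 0.60 on replicates 1 and 3 and at 0.46 and 0.41 on replicates 2 and 4. Its mean was 0.55 ± 0.16 (SD, n = 2), 1.46-fold, with an adjusted p from limma of 0.0165. Its 6 probes, between positions 1822858 and 1824104 of the array, had means from 0.09 to 0.89 and none lay in another coding span. After loess its value was 0.42 with an adjusted p of 0.0180, so mrpl10 was called with and without that correction. It was not called in any of the 4 fits that left out 1 array, where its value was 0.52 to 0.57.

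The gene mrpl39 (SPBC4F6.08C, chromosome II, coding span of 277 bp) encodes bL33m, another large subunit protein of the bacterial type, and had only 2 window probes. Its value was 0.01 and 1.25 on replicates 1 and 3 and 0.97 and 0.45 on replicates 2 and 4, so replicate 1 sat at the median probe and the other 3 arrays above it. An array's own value covers only the probes measured on it, so the mean of an immunoprecipitation need not be the mean of its arrays. By immunoprecipitation it was 0.36 and 0.71, a mean of 0.54 ± 0.25 (SD, n = 2), 1.45-fold, with an adjusted p from limma of 0.0193. Neither probe was well above background on all 4 arrays. After loess its value turned to -0.05.

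The gene mrx14 (SPBC21C3.04C, chromosome II, coding span of 327 bp) encodes bL34m, also of the bacterial type. It had -1.07 and -0.99 on replicates 1 and 3, against 0.37 and -0.26 on replicates 2 and 4, so the immunoprecipitations do not overlap and their means, -1.03 and 0.06, differ in sign. The mean was -0.49 ± 0.77 (SD, n = 2), with an adjusted p from limma of 0.0438. Of its 2 probes 1 lies inside the neighbouring gene cqd1, of the ABC1 kinase family. With that probe left out the value of mrx14 was -0.33, with an adjusted p of 0.326. The genes called in Cy3 were thus above 0 on every array, mrpl39 by 0.01 on 1 of them, while mrx14 was not below 0 on all.

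**Figure D2:**
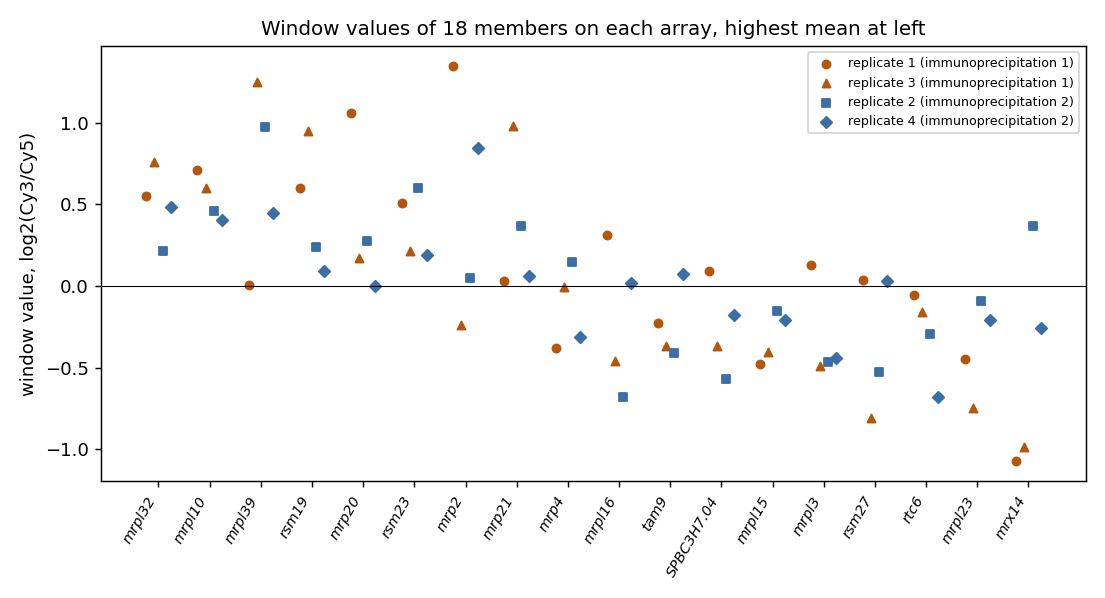
Window values (log2(Cy3/Cy5), y axis) of 18 mitochondrial ribosomal protein genes on each of the 4 arrays, ordered by mean, with replicates 1 and 3 of immunoprecipitation 1 left of replicates 2 and 4 of immunoprecipitation 2. Only mrpl32, mrpl10 and mrpl39 at the left end and mrx14 at the right end were called, and mrpl39 spans 0.01 to 1.25 over its arrays.

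Leaving out 1 array at a time changed which genes were called, and fewer of all coding genes were called as well. Over all coding genes the counts in Cy3 were 34, 42, 0 and 55 without replicates 1, 2, 3 and 4 in turn, against 79. In Cy5 they were 204, 239, 49 and 279, against 315. Without replicate 3 none of the 71 was called in either direction, with 1 in Cy3 and 1 in Cy5 at an unadjusted p under 0.05. Without replicate 1 there were 2 called in Cy3, without replicate 2 there was 1 in Cy3 and 1 in Cy5, and without replicate 4 there was 1 in Cy3. Without replicate 1, 3 or 4 none was called in Cy5, with 6, 1 and 2 at an unadjusted p under 0.05. The call of mrpl32 was lost without replicate 3 or 4, that of mrpl39 without replicate 2 or 3, and that of mrx14 without replicate 1, 3 or 4. An array left out leaves the other array of its immunoprecipitation to stand alone.

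Beyond the called genes, the large and small subunits stood side by side. The 43 large subunit genes had a median of -0.06 (-0.09 and 0.08 by immunoprecipitation). Of these, 3 were called in Cy3 and 1 in Cy5, together 9.3%, close to the 9.16% of all coding genes. The 27 small subunit genes had a median of 0.01 (-0.08 and 0.14) with none called. After the loess correction for brightness the calls included small subunit genes, among them rsm19 in Cy3 and rsm27 in Cy5. At an n of 2, no exact permutation of the signs of the immunoprecipitations can give a two-sided p below 0.5. The names of the proteins also divide them by origin. The 28 genes for proteins found in all ribosomes had a median of -0.03, the 15 for proteins shared with bacteria 0.04, and the 20 for proteins specific to mitochondrial ribosomes -0.01, with ranges that overlapped throughout. For the other 8 the product name gives no such class.

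Among the large subunit genes not called, mrp20 (uL23m, at the exit of the peptide tunnel) had 1.06 and 0.17 on replicates 1 and 3 and 0.27 and 0.00 on replicates 2 and 4, a mean of 0.38 with an adjusted p of 0.167. The lowest with the same sign in both immunoprecipitations was mrpl23 (uL13m), at -0.45 and -0.75 on replicates 1 and 3 and -0.09 and -0.21 on replicates 2 and 4, below 0 on every array. Its mean was -0.36 ± 0.30 (SD, n = 2), with an adjusted p of 0.196. Next to it came rtc6 (bL36m) at -0.33, mrpl3 (mL44) at -0.31, mrpl15 (mL57) at -0.29, tam9 (bL31m) at -0.21 and mrpl16 (uL16m) at -0.20. Of these 5, rtc6 and mrpl15 were below 0 on all 4 arrays. Without the probes inside other coding spans rtc6 had -0.09 and mrpl3 -0.11, so their place at this end depended in part on probes shared with neighbours. The coding span probe of rtc6 itself was also low, at -0.73.

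The remaining large subunit genes can be read by their place in the ribosome, and those given here were chosen for role and not by value. In the stalk, which takes up translation factors in bacterial ribosomes, and at its base, mrp11 (uL10m) had -0.06, mrpl19 (uL11m) -0.25 and mrpl12 (bL12m) -0.06. In each of these the immunoprecipitations differed in sign, and mrpl19 spread most, with -0.76 in the first and 0.26 in the second. Close to the peptidyl transferase centre, rml2 (uL2m) had 0.27 and 0.24 in the immunoprecipitations, a mean of 0.25 ± 0.02 (SD, n = 2) with an adjusted p of 0.449. In the same region mrpl9 (uL3m) had 0.03, yml6 (uL4m) 0.23 and mrpl16 (uL16m), given above, -0.20. Around the tunnel exit mrpl22 (uL22m) had 0.11, mrpl40 (uL24m) -0.08 and mrpl4 (uL29m) -0.19. None of these genes passed the test. The gene mhr1 (mL67), whose budding yeast counterpart also acts in the upkeep of mitochondrial DNA, had 0.19 with an adjusted p of 0.618.

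The small subunit genes spread around the median probe with no call in the main window test. The highest was rsm19 (uS19m), at 0.60 and 0.95 on replicates 1 and 3 and 0.24 and 0.09 on replicates 2 and 4, above 0 on every array. Its mean was 0.46 ± 0.41 (SD, n = 2), with an adjusted p of 0.0627, and after loess 0.59 with an adjusted p of 0.00297. The immunoprecipitations lay close together in rsm23 (mS29), at 0.36 and 0.38, and on the arrays at 0.51, 0.21, 0.60 and 0.19 in the order of replicates 1, 3, 2 and 4. Its mean was 0.37 ± 0.01 (SD, n = 2), and its adjusted p was 0.173, with the standard error of 0.17 that the fit gave nearly every gene. After loess rsm23 had 0.04, with an adjusted p of 0.836. Below these, mrp2 (uS14m) had 0.34 and mrp21 (bS21m) 0.33. After loess both lay near 0, at -0.05 for mrp2 and -0.02 for mrp21.

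At the other end of the small subunit, rsm27 (mS33) had -0.32 and SPBC3H7.04 (mS42) -0.25. Neither was called in the window test, with adjusted p of 0.285 for rsm27 and 0.447 for SPBC3H7.04. Of the proteins near the decoding site and the tRNA path, mrps12 (uS12m) had 0.17, sws2 (uS13m) 0.01 and rsm7 (uS7m) -0.02. The gene bot1, required for mitochondrial protein synthesis and respiration in fission yeast, had -0.14 with an adjusted p of 0.755. None of these passed the test either.

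Restricting the values to probes inside the coding span gave another set of calls. There the 71 genes had a median of 2 probes, 18 of them only 1, and their median value was -0.05, against -0.03 over the 4202 coding genes with such a probe. In this test 0.928% of all coding genes were called in Cy3, 5.02% in Cy5 and 5.95% in either direction. Of the 71 genes none was called in Cy3 and 2 in Cy5, 2.82%, with 7 and 9 at an unadjusted p under 0.05. The 2 called were mrp4 (uS2m, a small subunit protein found in all ribosomes) and rtc6 (bL36m, a large subunit protein of the bacterial type).

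The coding span of mrp4 (SPAC24C9.10C, chromosome I, 792 bp) held 3 probes. Its value over them was -0.71 and -0.77 in the immunoprecipitations, a mean of -0.74 with an adjusted p from limma of 0.0415. Along the gene the probe means ran from 0.61 just before the start codon, through -0.16, -0.76 and -1.30 over the coding span, to -0.47 after the stop codon. The window mean of mrp4, -0.14, hides this slope. After loess the coding span value was -0.25 with an adjusted p of 0.269. For rtc6 (SPBC83.06C, chromosome II, 279 bp) the coding span held 1 probe, at -0.78 and -0.68 in the immunoprecipitations, a mean of -0.73 with an adjusted p of 0.0456. After loess it was -0.62 with an adjusted p of 0.0417, so rtc6 was called with and without that correction. Neither call held when 1 array was left out. The adjusted p of mrp4 was then 0.0978 to 0.242 over 4 fits, and that of rtc6 0.0845 to 0.280 over the 3 fits that gave a value. The coding span probe of rtc6 was not well above background on all 4 arrays.

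At least 1.5-fold in both immunoprecipitations over the coding span, 3 of the 71 genes were higher in Cy5 and none in Cy3, against 4.97% and 0.928% of all genes. The 3 were mrp4, rtc6 and mrpl27, the last at -0.60 and -0.73 with an adjusted p of 0.0703. The gene mrpl27 was named after its value was seen.

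The position of probes showed a step at the start codon. Leaving out probes inside other coding spans, the probes 250 to 500 bp before the start codon of the 71 genes had a mean of 0.18 in immunoprecipitation 1 and 0.22 in immunoprecipitation 2. In the 250 bp before the start codon the means were 0.19 and 0.26, against 0.04 and 0.13 over all coding genes. Inside the first 250 bp of the coding span they were -0.04 and -0.02, against 0.01 and 0.01. The flank before the genes was therefore higher in Cy3 than the coding span in both immunoprecipitations. The bins before the start codon were also dimmer, with a mean log2 brightness of 11.7 and 11.9, against 12.04 in the first 250 bp of the coding span. After loess the means before the start codon were -0.04 and 0.01, against -0.13 in the first 250 bp of the coding span. Over the same 2 upstream bins, all coding genes had -0.13 and -0.10 after loess, and -0.03 in the first 250 bp of the coding span.

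Gene by gene, the value of the 500 bp before the start codon was higher than that of the coding span in 48 of 69 genes (69.6%), against 63.3% of all coding genes. The median upstream value was 0.19 (0.16 and 0.28 by immunoprecipitation), against 0.11 (0.07 and 0.15) over all coding genes. In that test 0.0724% of all genes were called in Cy3 and 0.459% in Cy5, 0.531% in all, and of the 69 genes measured none was called in Cy3 (5 at an unadjusted p under 0.05) and 1 in Cy5. The 1 was rsm7, at -3.64 and -0.84 in the immunoprecipitations over a single probe that was not well above background on all 4 arrays. This gene, too, was named after its value was seen.

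After the stop codon the immunoprecipitations parted. In the first 250 bp the mean over the 71 genes was -0.48 in immunoprecipitation 1 and 0.06 in immunoprecipitation 2, against -0.22 and -0.08 over all coding genes. The median of the 500 bp after the stop codon was -0.08 for 70 of the genes, against -0.09 over all genes, and none was called in either direction, with 0 in Cy3 and 1 in Cy5 at an unadjusted p under 0.05. Among all genes 1.96% were called there.

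**Figure D3:**
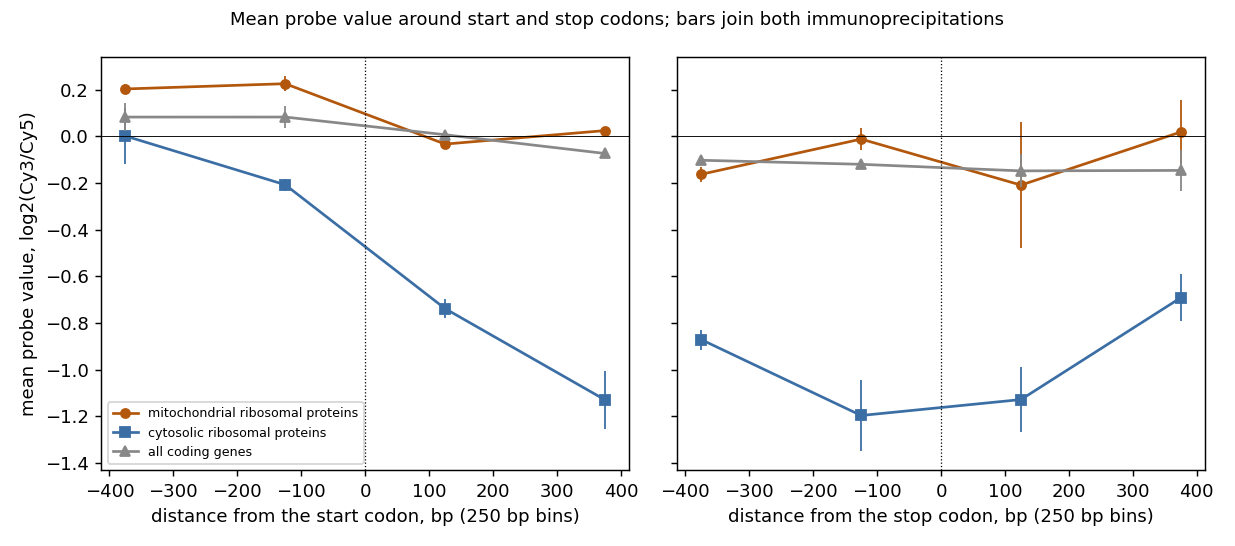
Mean probe value (log2(Cy3/Cy5), y axis) in bins of 250 bp by distance in bp from the start codon (left panel) and the stop codon (right panel), without probes in other coding spans, for mitochondrial ribosomal protein genes (circles), cytosolic ribosomal protein genes (squares) and all coding genes (triangles), with bars joining both immunoprecipitations. The means of the mitochondrial genes stay between -0.21 and 0.23, while those of the cytosolic genes reach -1.20 before the stop codon.

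The cytosolic ribosomal protein genes, similar in length with a median coding span of 533 bp, were at another level on the same arrays. Of the 117 such genes 85 (72.6%) were called higher in Cy5 and none in Cy3. The count in Cy5 depended on the arrays, with 8 called without replicate 3 and 62 to 77 without 1 of the others. It was 24 with probes well above background and 44 with the authors' deposited table. Their median was -0.76 and -0.58 in the immunoprecipitations. The medians of the mitochondrial genes were higher by 0.67 and 0.70 in the 2 immunoprecipitations, and by 0.63 between the medians of the means, a 1.54-fold difference. None of the 71 mitochondrial genes lay at or below the cytosolic median, and none of the 117 cytosolic genes lay at or above the mitochondrial median. The cytosolic median lay below the mitochondrial one under all 19 alternatives tried. Of the cytosolic genes 81 lay below mrx14, the lowest of the mitochondrial ones. This difference was in the same direction in both immunoprecipitations, and with n = 2 the smallest exact two-sided p is 0.5, so no p is given for it.

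Examples from the cytosolic list were rps1402 (uS11) and rps2 (uS5). On replicates 1, 3, 2 and 4 in that order rps1402 had -1.83, -1.61, -1.39 and -1.19, and rps2 had -1.47, -2.03, -1.13 and -1.26. Their means were -1.505 for rps1402 and -1.47 for rps2, with adjusted p from limma of 5.12e-16 and 2.41e-15. Every one of these array values lay below the lowest mean of the mitochondrial genes. Single arrays of mitochondrial genes also went as low, with mrps28 at -1.98 and mrpl7 at -1.44 on replicate 1. Both were above 0 on replicates 2 and 4, and both were named after their values were seen. The called cytosolic genes nearest the threshold were rps1501 (uS19) at -0.48 and rpl1802 (eL18) at -0.48. Counterparts of some genes already named for their values can be set side by side here. Other counterparts were not compared, so these pairs need not be typical. For the uS19 protein, rps1501 had -0.48 and rsm19, the highest of the mitochondrial small subunit genes, 0.46. For the uS5 protein, rps2 had -1.47 and mrp5 0.19. Neither rsm19 nor mrp5 was called in the window test.

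Over the coding span alone the gap was wider. There the cytosolic median was -0.98, against -0.05 for the mitochondrial genes, and 70 of 103 cytosolic genes were called in Cy5. Spot brightness moved with this difference, since the median log2 brightness of the windows was 12.01 for the mitochondrial genes, 12.5 for the cytosolic ones and 12.2 for all coding genes. Across genes the value correlated with brightness at r = -0.44 among the 71 genes and -0.57 among all coding genes. After loess, which removes the trend with brightness on each array, the medians were -0.09 for the mitochondrial genes, -0.45 for the cytosolic genes and -0.05 for all coding genes. The calls among the 71 genes moved as well. After loess 2 were called in Cy3 and 8 in Cy5, 14.1%, against 2.74% and 10.2% of all coding genes, 12.9% in either direction. Those in Cy3 were mrpl10 and rsm19. Those in Cy5 were mrx14, rsm27, SPBC3H7.04, mrpl27, rsm10, img2 (mL49), mrpl28 and mrpl17, and the last 5 of these were named after their values were seen. With a GC correction added, 3 were called in Cy3 and 13 in Cy5, 22.5%, against 3.68% and 12.8% of all genes, 16.4% in either direction. In the authors' deposited table, with the sign turned, 1 was called in Cy3 and 3 in Cy5, 5.63%, against 0.721% and 4.07% of all genes, 4.79% in either direction. Over the coding span after loess none of the 71 was called in Cy3 (7 at an unadjusted p under 0.05) and 4 in Cy5, 5.63%, against 1.67% and 2.78% of all genes, 4.45% in either direction.

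The median GC content of the windows was 36.5% for the mitochondrial genes, 37.4% for the cytosolic ones and 36.8% for all.

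**Figure D4:**
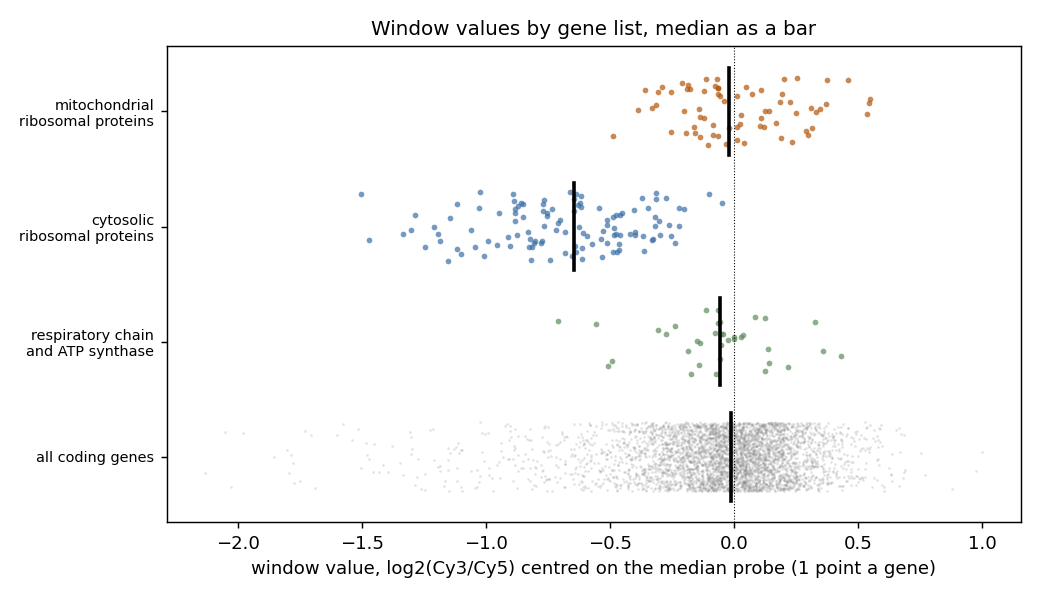
Window values (log2(Cy3/Cy5), x axis) of mitochondrial ribosomal protein genes, cytosolic ribosomal protein genes, respiratory chain and ATP synthase genes and all coding genes (y axis), 1 point a gene with the median as a bar. The mitochondrial median of -0.02 lies at that of all genes, and the cytosolic median is -0.65.

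**Figure D5:**
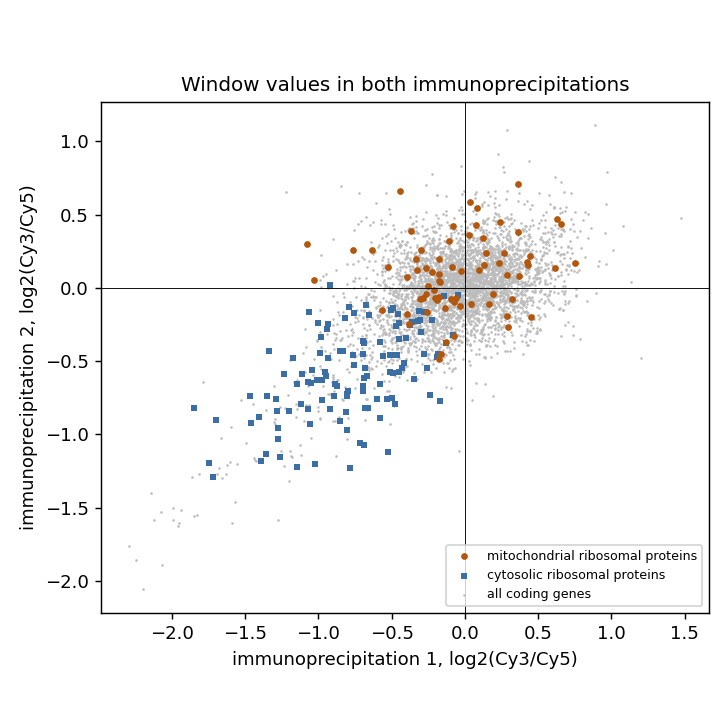
Window values in immunoprecipitation 1 (x axis) against immunoprecipitation 2 (y axis), both log2(Cy3/Cy5), for mitochondrial ribosomal protein genes (circles), cytosolic ribosomal protein genes (squares) and all coding genes (small points). The 71 mitochondrial genes lie around 0 with r = 0.15, and 116 of the 117 cytosolic genes have the same sign in both immunoprecipitations, below and to the left of 0.

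Other nuclear genes of mitochondrial function, listed by words in their products, gave a frame for these values. Of 36 genes of the respiratory chain and ATP synthase, 4 (11.1%) were called in Cy5 and none in Cy3, with a median of -0.06, a share close to the 9.16% of all genes. Without replicates 1, 2, 3 and 4 in turn 2, 1, 0 and 1 were called in Cy5, and 0 with normexp or the authors' deposited table. The 4 were atp2, the beta subunit of the ATP synthase, at -0.71, sdh2 of succinate dehydrogenase at -0.56, qcr7 of the ubiquinol-cytochrome c reductase at -0.51, and the NADH dehydrogenase nde1 at -0.49. No gene was called among 6 other mitochondrial translation genes (median 0.02), 7 import genes (median -0.27) or 17 further mitochondrial products (median 0.00).

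Some windows of the 71 genes reached into neighbours that were themselves called in Cy5. The window of mrpl3 shares 1 probe with the coding span of rpp102, a stalk protein P1 of the cytosolic ribosome, whose own coding span had -1.61. The window of kgd4 shares 1 probe with rps402 (eS4), at -1.04. These were the 2 neighbours called over their coding spans. With all probes in other coding spans left out, 4 of the 71 genes were called in Cy3 and none in Cy5 (9 and 3 at an unadjusted p under 0.05), 5.63% as before, against 1.63% and 6.58% of all genes, 8.21% in either direction. The gene added was yml6, at 0.95 and 0.23 in the immunoprecipitations, a mean of 0.59 with an adjusted p of 0.0174.

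Of the 71 genes 2 pairs are neighbours that are transcribed away from each other. Between yml6 and snr1 (mS47), 615 bp apart on chromosome II, 3 probes had a mean of 0.72 in immunoprecipitation 1 and 0.10 in immunoprecipitation 2. Between mrps12 and mrpl28 (mL40), 990 bp apart on chromosome I, 3 probes had 0.61 and 0.18. Both shared flanks were higher in Cy3 in both immunoprecipitations, with the larger value in the first.

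The promoters differed between the mitochondrial and cytosolic genes in the letters searched. An annotated transcript start upstream of the coding span was found for 67 of the 71 genes, and the 250 bases before it were searched on both strands. The HomolD box CAGTCACA was in 0 of 67, against 70 of 113 cytosolic ribosomal protein genes (61.9%) and 2.82% of the 3832 coding genes with such a start. The HomolE box was in 1 of 67 (1.49%), against 31.0% of the cytosolic genes and 1.41% of all. The 1 was kgd4, whose window shares a probe with rps402. The 250 bases searched for kgd4 also overlap 2 other annotated coding transcripts. Its element lies within chrII:1651905-1651934 of ASM294v3 (plus strand), a stretch shown with the box in capitals.
kgd4: gcaagtaccaACCCTACCCTacccatttaa

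The TATA box TATAAA was in 36 of the 67 promoters (53.7%), against 23.9% of the cytosolic ones and 44.9% of all. The element AATTTTT, named for genes of this class in other yeasts, was in 21 (31.3%), against 23.9% of the cytosolic promoters and 32.4% of all. None of the 4 motifs contains another, and a match or its lack describes letters in this window only. The 36 genes with a TATA box had a median window value of 0.08 and the 31 without one -0.06. The 21 genes with the A/T-rich element had -0.06 and the 46 without it 0.04.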

How the data were processed

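The data are 4 two-colour Agilent tiling arrays of HA-tagged Cdk11 from 2 immunoprecipitations with 2 hybridisations each. Per the file headers, the deposited scanner files hold spot intensity values in GenePix format (mean foreground, median local background), the percent of pixels above background and of saturated pixels, and, as a fraction, the squared pixel correlation of the channels. The value table deposited by the authors gives log2 ratios, which ran as Cy5 over Cy3 after loess (r 0.996 to 0.999 with loess values computed here, array medians -0.01 to -0.03). It was used with the sign turned. The steps behind it are not given in the sources used here.

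Each probe's value was log2(Cy3/Cy5) of mean foregrounds, centred on each array's median probe. Spots marked as poor were left out unless only saturated, where the squared pixel correlation exceeded 0.3, which removed 16.3, 5.28, 8.05 and 1.00% of probes on replicates 1 to 4. Duplicate arrays were averaged per probe and probes over the coding span plus 500 bp, and n is 2. Windows were tested against 0 with limma 3.58.1 in R 4.3.3 (lmFit, eBayes, two-sided) and adjusted by Benjamini-Hochberg at 0.05. "Well above background" means at least 50% of pixels in both channels. The number of arrays limits the precision.

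Array coordinates were compared with ASM294v3 in windows of 100000 bp by GC content: 106 of 107 windows outside chromosome I beyond 3.7 Mb matched. Promoters were read from ASM294v3 (RefSeq) by its own annotation. Named genes were those called in either test plus the 8 lowest and 8 highest with the same sign in both immunoprecipitations. Genes outside this rule are named for role, for place beside another gene, or as stated. The genes and lists were chosen with earlier results of these data known. Alternatives covered normalization, centring, background, filters, windows, the variance model and leaving out arrays.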

Additional observations from a re-analysis of the deposited data

Results flagged for a closer look

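In 3 of the 71 genes 1 of the 4 arrays lay apart from the other 3, by the gap to the nearest array over the whole range against Dixon's critical value for 4 samples. Chance flags about 1 in 20 groups, so 3 of 71 is no more than chance gives. Replicate 1 of mrpl3 was at 0.13, against -0.49 to -0.44 on the other arrays. Replicate 1 of mrps28 was at -1.98, against 0.04 to 0.18, with 2 of its 5 window probes measured on that array. Replicate 2 of mrpl38 was at -0.64, against 0.21 to 0.36 on the others.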

How the results depend on the processing

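No paired analysis was possible because all 4 arrays belong to 1 group. The counts of the window test and the named genes were recomputed under 19 alternatives (18 for mrx14 and 17 for mrpl39, which lack probes in some) and the counts over the coding span under 14. Means by position are given in the main setting and after loess only. Medians by subunit are given in the main setting only, and those by protein class and promoter motif were not recomputed. The causes of the changes were not tested. For the 18 named genes, 259 of 339 alternative values kept their direction and side of the threshold, 50 were no longer past it, 14 were newly past it and 16 turned direction. Values that turned were, over the 500 bp before the start codon, mrpl23 0.29, rtc6 0.51, mrpl15 0.074, SPBC3H7.04 0.075, tam9 0.052 and mrp4 0.81, and over the coding span mrpl3 0.061. After loess mrp4 was 0.13, mrp21 -0.022, mrp2 -0.046 and mrpl39 -0.049, after loess with GC correction mrp4 was 0.12, and in the authors' deposited table mrp4 was 0.14, mrp21 -0.031, mrp2 -0.058 and mrpl39 -0.062.

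The genes called in Cy3 numbered 3 in the main test, and 1 with the deposited table, normexp, no spot filter or medians over probes, and 0 with centring on the mode, probes well above background, a trended robust variance, coding span probes, or either flank alone. Those called in Cy5 numbered 1, and 8 after loess, 13 after loess with GC correction, 3 with the deposited table and 2 over the coding span. They numbered 0 with centring on the mode, normexp, no spot filter, probes well above background, medians over probes, the immunoprecipitation as a random block of 4 arrays, the trended robust variance, the flank after the stop codon, and without probes in other coding spans. At an unadjusted p under 0.05 the settings with 0 calls held up to 7 of the genes in Cy3 and up to 7 in Cy5. The median of the 71 genes was -0.17 with centring on the mode, which moved the median of all genes to -0.15, and 0.19 over the upstream flank.

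Over all coding genes the window test gave 79 in Cy3 and 315 in Cy5. Those in Cy3 numbered 158 after loess with GC correction, 1 centred on the mode, 31 with the deposited table, 35 with no spot filter, 10 with probes well above background, 51 with medians over probes, 3 with the trended robust variance, 39 over the coding span, 3 upstream and 0 downstream (140 at an unadjusted p under 0.05 with limma). Those in Cy5 numbered 549 after loess with GC correction, 184 centred on the mode, 175 with the deposited table, 93 with probes well above background, 209 with the trended robust variance, 19 upstream and 82 downstream. Over the coding span, with 39 in Cy3 and 211 in Cy5, the count in Cy3 was 70 after loess, 118 after loess with GC correction, 5 centred on the mode, 152 with the deposited table, 16 with normexp, 13 with no spot filter, 13 with medians over probes and 0 with the trended robust variance (85 at an unadjusted p under 0.05). In Cy5 it was 117 after loess and 123 with normexp. Leaving out 1 array gave 0 to 55 genes in Cy3 and 49 to 279 in Cy5 in the window test, and 5 to 28 and 92 to 174 over the coding span. Of the 71 genes it gave 0 to 2 in Cy3 and 0 to 1 in Cy5, with medians of -0.04 to 0.05. Over the coding span 2 of the 71 were called in Cy5, and 0 with normexp, no spot filter, medians over probes, probes well above background or the trended robust variance (8 to 10 at an unadjusted p under 0.05), 1 centred on the mode, 4 after loess, 6 after loess with GC correction and 8 with the deposited table. Leaving out 1 array gave 0 to 1.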

Other observations

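The 66 probes for the mitochondrial genome itself, which the mitochondrial ribosome serves, were outside every comparison. Their median was 0.89 in immunoprecipitation 1 and 0.00 in immunoprecipitation 2, and 5 of the 66 were at least 1.5-fold higher in Cy3 in both, with none in Cy5. They were also brighter, with a median log2 brightness of 14.8, against 12.2 for nuclear probes, and after loess their medians were 3.52 and 1.67.

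Of the 395 probes in the windows of the mitochondrial ribosomal protein genes, 17 (4.30%) were at least 1.5-fold higher in Cy3 in both immunoprecipitations and 11 (2.78%) in Cy5. Over all 35169 probes within reach the shares were 4.13% in Cy3 and 6.49% in Cy5.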
